A study of Homo sapiens with 6 samples.

Results

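HOX genes encode homeodomain transcription factors that give cells their position along the body axis, and they sit in 4 clusters, HOXA, HOXB, HOXC and HOXD. Within a cluster the genes are numbered by paralogue group, so that genes with the same number in different clusters are the most alike, and the low numbers lie at the end used nearest the head. Cells of adult skin keep a pattern of active HOX genes, and HOXC13 is best known from hair and nail keratinocytes, where it drives hair keratin genes. The members described here are the protein-coding rows named HOX with a cluster letter and a number. There were 37 of them among 22941 genes, out of 39 such genes in RefSeq; HOXB1 and HOXB13 had no row and were not analysed here.

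The RNA came from HSC-3, an established cell line of human oral squamous cell carcinoma. Cells grew in the Rotary Cell Culture System, which rotates to simulate microgravity, or under normal gravity, with 3 biological replicate libraries in each group and no other treatment named. A rotating vessel changes more than the load on the cells, and its further differences from the normal gravity culture are not described in the sources used here. Differences below are simulated microgravity over normal gravity in this line, and levels are CPM, read counts relative to the scaled size of the library, which cannot show whether cells held more or less RNA in all. In bulk RNA, fewer cells with a transcript and less transcript per cell cannot be told apart.

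Total counts over genes were between 34264008 and 38861233 per library. Normal gravity replicate 3 lay apart from the other normal gravity libraries on the second principal component (7.59% of the variance). Over the 29 HOX genes that were tested, its values had a median log2 ratio of 0.14 to the mean of the other 2, with a range of -1.43 to 0.97 (pseudocount 0.1 CPM). All 7 squamous epithelial markers were present, from 4499 to 5497 summed CPM in simulated microgravity and from 11213 to 19583 in normal gravity. The basal keratin KRT14 was at 292 ± 15.0 CPM in simulated microgravity and 3106 ± 1008 CPM in normal gravity (SD, n = 3 each). KRT14, KRT5 and TP63 fell, KRT17, CDH1 and EPCAM rose (2.27-fold, 2.40-fold and 1.64-fold) and KRT6A did not pass, so these markers did not move one way. The 6 fibroblast markers summed to between 17.8 and 18.9 CPM in simulated microgravity and between 11.7 and 29.8 CPM in normal gravity, nearly all of it COL1A1. Of 3 leukocyte markers, PTPRC averaged 0.0750 CPM in simulated microgravity and 0.176 CPM in normal gravity, CD3E averaged 0.0375 CPM in simulated microgravity and 0.00887 CPM in normal gravity, and the lysosomal gene CD68 rose, at 188 ± 13.2 CPM in simulated microgravity and 93.6 ± 15.1 CPM in normal gravity (SD, n = 3 each; adjusted p = 3.56e-04 in edgeR's quasi-likelihood test). The 3 endothelial markers summed to between 2.18 and 3.49 CPM in simulated microgravity and between 1.60 and 5.76 CPM in normal gravity. CDH5 among them was called higher on 80 counts in simulated microgravity and 6 in normal gravity, and PECAM1 and VWF did not pass. CDH5 passed the filter for low counts through simulated microgravity alone, so its place among the tested genes depended on being high there. The part of these shifts in the HOX results was not tested.

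HOXC13 stood at the head of the changes, and its paralogues in the other clusters, both with few reads, went the opposite way. The part of a HOX protein that binds DNA is encoded by the homeobox, a stretch of 180 bases in exon 2 of each gene. The homeoboxes of paralogue group 13 are shown because these genes divided in direction, and to show how far their reads can be told apart. They lie at chr12:53945041-53945220 (plus strand, HOXC13), chr7:27198222-27198401 (minus strand, HOXA13) and chr2:176094524-176094703 (plus strand, HOXD13) on GRCh38, read from GENCODE release 29, and capitals mark bases that differ from HOXC13.
HOXC13: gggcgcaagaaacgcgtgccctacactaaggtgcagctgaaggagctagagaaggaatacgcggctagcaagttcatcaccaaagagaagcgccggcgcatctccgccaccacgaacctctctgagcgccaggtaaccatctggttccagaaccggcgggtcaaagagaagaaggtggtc
HOXA13: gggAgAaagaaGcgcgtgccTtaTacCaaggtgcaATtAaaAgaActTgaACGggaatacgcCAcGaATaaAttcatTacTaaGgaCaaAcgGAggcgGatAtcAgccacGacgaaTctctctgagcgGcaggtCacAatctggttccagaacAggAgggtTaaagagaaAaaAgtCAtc
HOXD13: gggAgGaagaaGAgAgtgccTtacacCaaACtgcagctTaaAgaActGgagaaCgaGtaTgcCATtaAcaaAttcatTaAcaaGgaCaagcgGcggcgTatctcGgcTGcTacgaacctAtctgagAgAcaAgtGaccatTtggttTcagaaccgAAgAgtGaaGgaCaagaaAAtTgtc

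HOXA13 differed from HOXC13 at 43 of the 180 bases (76.1% identity) and HOXD13 at 47 (73.9%). The longest run of bases shared by the transcripts of HOXC13 and HOXA13 was 19, and that of HOXC13 and HOXD13 was 16. Reads were 150 bases long per the labels, far longer than these runs.

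HOXC13 (chromosome 12, 53938831 to 53946544, RefSeq GRCh38.p14) was at 121.7, 98.2 and 149 CPM in the simulated microgravity libraries, against 18.3, 14.4 and 18.0 CPM in the normal gravity libraries. The groups did not overlap and lay far apart. HOXC13 rose 7.28-fold (log2 fold change 2.86, SE 0.18, adjusted p = 9.63e-06 in edgeR's quasi-likelihood test). Its paralogues HOXA13 and HOXD13, known as genes of the limb tips and the genital tract, fell. HOXA13 had 2, 4 and 4 counts in simulated microgravity, against 17, 19 and 19 counts in normal gravity (log2 fold change -2.33, SE 0.55, adjusted p = 0.00663). It passed the filter for low counts through normal gravity alone, and without that filter its adjusted p was 0.0232. HOXD13 had 1, 11 and 4 counts in simulated microgravity, against 26, 22 and 18 counts in normal gravity (log2 fold change -1.93, SE 0.71, adjusted p = 0.0434). The HOXD13 call rests on few reads and ended when any of 4 libraries was left out. Its adjusted p was 0.118 and 0.138 without simulated microgravity replicates 1 and 3, and 0.115 and 0.0812 without normal gravity replicates 1 and 2. The call also ended without the count filter (0.0593), with the DESeq2 Wald test (0.0514) and with a replicate block in the model.

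Of the 37 HOX genes, 29 had enough counts to be tested and 8 did not. Among the 29, 3 rose, 13 fell and 13 did not pass an adjusted p of 0.05. Of the HOX genes tested 55.2% passed, 10.3% higher and 44.8% lower. Of all 14736 genes tested 57.6% passed, 28.2% higher and 29.3% lower, so the share of HOX genes that passed was near the background. The median log2 fold change was -0.82 over the tested HOX genes and -0.01 over all tested genes. HOXA13 and HOXB7 passed the count filter through the normal gravity libraries alone, so their place among the tested genes already depended on being low in simulated microgravity. Simulated microgravity lay wholly above normal gravity for 5 of the 29 and wholly below for 18. Of all tested genes 66.3% did not overlap, 33.0% above and 33.3% below. Without normal gravity replicate 3, 6 HOX genes rose and 14 fell of 31 tested. The calls over all genes grew there too, to 4833 higher and 4722 lower of 15218 tested, from 4157 and 4325 of 14736.

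**Figure D1:**
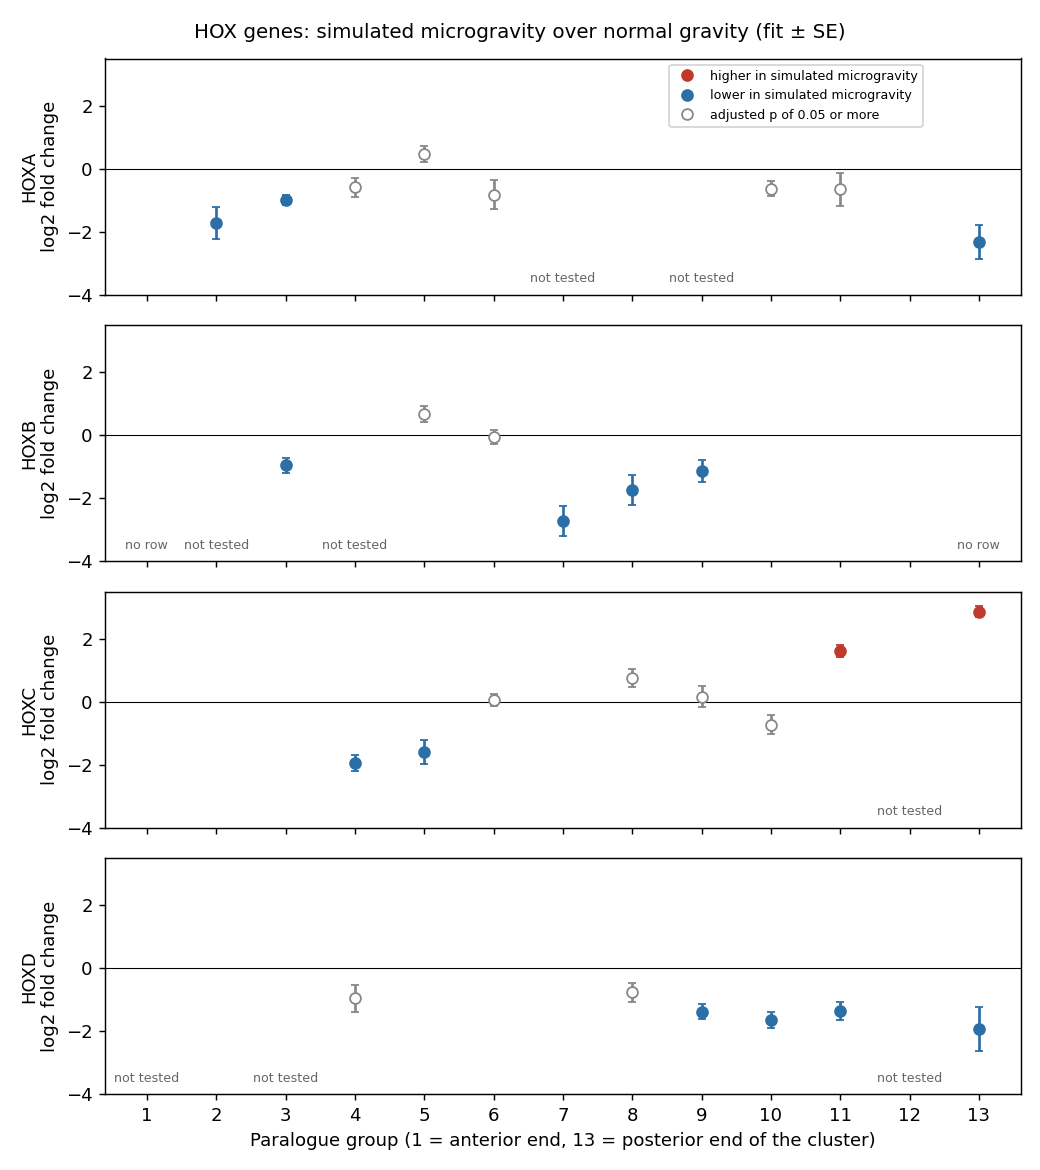
Fitted log2 fold change (vertical axis, simulated microgravity over normal gravity, bars SE) of tested HOX genes, drawn by paralogue group (horizontal axis) in the 4 clusters. HOXC11 and HOXC13 lie at 1.62 and 2.86, and every tested HOXD gene lies below 0.

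At the posterior end of the HOXC cluster, HOXC11 moved with HOXC13 and the gene between them, HOXC12, had few reads. HOXC11 (chromosome 12, 53973126 to 53977643), a posterior patterning gene, was at 17.2, 14.9 and 21.1 CPM in simulated microgravity, against 5.36, 5.46 and 6.53 CPM in normal gravity. It rose 3.07-fold with no overlap between groups (log2 fold change 1.62, SE 0.19, adjusted p = 1.90e-04). HOXC12, another posterior patterning gene, had 15, 14 and 7 counts in simulated microgravity, against 4, 0 and 0 counts in normal gravity. It was too low to be tested, and the ratio of its CPM was 9.59 with a 95% counting interval of 3.44 to 37.1. Without the count filter its adjusted p was 0.0405.

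Of the middle HOXC genes none passed the test. HOXC10, which patterns the lumbar and hindlimb level, was at 2.87, 1.98 and 3.93 CPM in simulated microgravity, against 5.02, 4.68 and 4.81 CPM in normal gravity. The groups did not overlap but the test did not pass (log2 fold change -0.72, SE 0.29, adjusted p = 0.0592). HOXC9 and HOXC6, which mark thoracic levels, overlapped between groups. HOXC9 was at 4.57, 4.14 and 5.14 CPM in simulated microgravity, against 2.43, 4.07 and 5.87 CPM in normal gravity. HOXC6 was at 9.71, 11.2 and 10.1 CPM in simulated microgravity, against 8.37, 10.7 and 10.8 CPM in normal gravity. HOXC9 had a log2 fold change of 0.16 (approximate 95% interval -0.48 to 0.80) and HOXC6 of 0.06 (-0.29 to 0.40). HOXC8 lay higher in each simulated microgravity library, at 3.04, 4.14 and 2.58 CPM, against 1.73, 2.00 and 2.07 CPM in normal gravity, and just missed the threshold (log2 fold change 0.75, SE 0.29, adjusted p = 0.0530).

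HOXC4 and HOXC5, at the anterior end of the cluster, both fell. HOXC4 (chromosome 12, 54016888 to 54056030) was at 2.18, 1.84 and 1.37 CPM in simulated microgravity, against 6.41, 7.03 and 7.49 CPM in normal gravity. It fell 3.87-fold (log2 fold change -1.95, SE 0.25, adjusted p = 3.12e-04), and the groups were far apart. HOXC5 was at 0.718, 0.793 and 0.495 CPM in simulated microgravity, against 1.57, 2.50 and 1.99 CPM in normal gravity (log2 fold change -1.59, SE 0.37, adjusted p = 0.00647). RefSeq lets these genes and HOXC6 begin at the same base, and in GENCODE release 29 HOXC5 shares 916 of 2113 exonic bases with other genes on its strand, HOXC4 and HOXC6 among them. Reads in shared exons cannot be given to one of these genes with certainty. The shared promoter window of HOXC4 and HOXC5 is shown because both genes begin there and fell, although HOXC6, which begins at the same base, did not pass the test. It is set beside windows of HOXD10 and HOXD11, which also fell. The windows run from 250 bases before to 50 bases after the start, on the plus strand of RefSeq GRCh38.p14, at chr12:54016638-54016937 (HOXC4 and HOXC5), chr2:176116528-176116827 (HOXD10) and chr2:176107030-176107329 (HOXD11). Capitals mark CCAAT boxes (reading ATTGG on the other strand) and, in HOXD11, a match to TGATNNAT (on the other strand), the site bound by HOX and PBX proteins together.
HOXC4 and HOXC5: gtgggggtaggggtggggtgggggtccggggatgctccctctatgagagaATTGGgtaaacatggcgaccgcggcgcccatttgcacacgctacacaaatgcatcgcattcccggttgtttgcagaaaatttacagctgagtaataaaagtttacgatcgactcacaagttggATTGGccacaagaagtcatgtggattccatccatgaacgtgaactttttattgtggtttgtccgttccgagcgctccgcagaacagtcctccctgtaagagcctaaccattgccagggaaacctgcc
HOXD10: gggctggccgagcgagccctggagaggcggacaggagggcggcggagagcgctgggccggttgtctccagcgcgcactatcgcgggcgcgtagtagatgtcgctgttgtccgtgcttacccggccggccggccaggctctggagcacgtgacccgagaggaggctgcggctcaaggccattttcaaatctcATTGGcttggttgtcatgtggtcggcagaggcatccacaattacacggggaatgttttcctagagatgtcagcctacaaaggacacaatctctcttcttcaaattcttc
HOXD11: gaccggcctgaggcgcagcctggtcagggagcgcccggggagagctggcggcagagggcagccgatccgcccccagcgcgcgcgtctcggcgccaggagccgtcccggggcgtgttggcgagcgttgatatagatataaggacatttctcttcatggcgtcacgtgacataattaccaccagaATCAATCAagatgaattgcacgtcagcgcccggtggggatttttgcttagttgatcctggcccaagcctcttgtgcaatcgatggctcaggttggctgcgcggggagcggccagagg

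RefSeq windows matched 19 of the 37 HOX genes, in 25 distinct windows. None belonged to a HOXB gene, to HOXC11 or to HOXC13, so the shares that follow do not describe all HOX genes. CCAAT was found on either strand in 16 of the 25 (64%), against 34.6% of 34943 windows of all genes. TATAAA was found in 5 (20%, against 11.6%) and TGATNNAT in 2 (8%, against 7.42%). AGGTCA, a half-site of nuclear receptors, was found in 0 (against 13.8%). Other variants of these sites, and sites outside the windows, were not searched. Several windows belong to the same gene, most often HOXA3, and these are matches of letters, not measured binding.

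In the HOXD cluster 4 of 6 tested genes fell and none rose. In all 6 the highest simulated microgravity value lay below the lowest normal gravity value. Of all tested genes 29.3% fell, 28.2% rose and 33.3% lay wholly below. HOXD10 (chromosome 2, 176116778 to 176119937), a limb and lumbar patterning gene, was at 5.17, 6.55 and 3.68 CPM in simulated microgravity, against 13.002, 15.9 and 19.6 CPM in normal gravity. It fell 3.15-fold (log2 fold change -1.65, SE 0.25, adjusted p = 7.39e-04). HOXD9 was at 3.04, 3.77 and 2.45 CPM in simulated microgravity, against 7.35, 9.47 and 7.15 CPM in normal gravity (log2 fold change -1.37, SE 0.25, adjusted p = 0.00160). HOXD11, which with its paralogues shapes forearm and kidney in mice, was at 3.25, 5.72 and 2.83 CPM in simulated microgravity, against 9.50, 8.86 and 11.8 CPM in normal gravity (log2 fold change -1.35, SE 0.29, adjusted p = 0.00431). HOXD10 and HOXD11 share 452 exonic bases in GENCODE release 29, so their counts are not wholly separate.

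HOXD8 and HOXD4 lay below their normal gravity values without a call. HOXD4 shares 1178 of its 1464 exonic bases with another gene on its strand, so its counts are not wholly separate. HOXD8 was at 2.41, 3.599 and 3.601 CPM in simulated microgravity, against 5.34, 3.86 and 7.04 CPM in normal gravity (log2 fold change -0.76, SE 0.30, adjusted p = 0.0570). HOXD4, a hindbrain gene, was at 0.460, 0.340 and 0.605 CPM in simulated microgravity, against 0.916, 1.09 and 0.717 CPM in normal gravity, a log2 difference of -0.95 (SE 0.43, adjusted p = 0.0914). HOXD12 had 1, 3 and 4 counts in simulated microgravity, against 6, 10 and 17 counts in normal gravity, a CPM ratio of 0.258 (95% counting interval 0.103 to 0.570). At the anterior end HOXD1 had 13, 5 and 33 counts in simulated microgravity, against 6, 6 and 2 counts in normal gravity, and HOXD3 had 2, 9 and 2 counts, against 5, 0 and 5 counts. The CPM ratio was 3.88 for HOXD1 (95% counting interval 2.12 to 7.59), opposite to HOXD12, and 1.38 for HOXD3 (0.561 to 3.53). These 3 genes were too low to be tested, and the groups of HOXD1 and HOXD3 overlapped. In edgeR's quasi-likelihood test without the count filter, the adjusted p was 0.133 for HOXD12, 0.0891 for HOXD1 and 0.794 for HOXD3.

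In the HOXB cluster the genes of paralogue groups 7 to 9 fell, and HOXB5 and HOXB6 in its middle did not pass the test. HOXB7, a gene linked to growth of several carcinomas, had 9, 9 and 5 counts in simulated microgravity, against 42, 48 and 75 counts in normal gravity. It fell 6.63-fold, having passed the count filter through normal gravity alone (log2 fold change -2.73, SE 0.48, adjusted p = 0.00153). HOXB8 was at 0.661, 0.907 and 0.357 CPM in simulated microgravity, against 1.60, 1.60 and 3.21 CPM in normal gravity (log2 fold change -1.73, SE 0.48, adjusted p = 0.0138). HOXB9 was at 4.85, 4.02 and 1.73 CPM in simulated microgravity, against 7.14, 7.24 and 9.06 CPM in normal gravity (log2 fold change -1.14, SE 0.36, adjusted p = 0.0232). Both calls were lost narrowly when a library was left out. HOXB8 had an adjusted p of 0.0501 without simulated microgravity replicate 3, and HOXB9 of 0.05003 without simulated microgravity replicate 2.

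HOXB5, a gene of the upper trunk, was at 3.33, 4.85 and 4.07 CPM in simulated microgravity, against 2.30, 2.45 and 2.90 CPM in normal gravity (log2 fold change 0.68, SE 0.26, adjusted p = 0.0514). HOXB6 was at 5.17, 5.38 and 4.81 CPM in simulated microgravity, against 4.58, 5.86 and 5.55 CPM in normal gravity, with overlapping groups and a log2 fold change of -0.06 (approximate 95% interval -0.46 to 0.35). HOXB3, a hindbrain gene, was at 4.62, 5.21 and 3.55 CPM in simulated microgravity, against 9.26, 9.87 and 6.75 CPM in normal gravity, and fell (log2 fold change -0.95, SE 0.24, adjusted p = 0.00892). HOXB4, a regulator of blood stem cells, had 3, 2 and 7 counts in simulated microgravity, against 6, 13 and 12 counts in normal gravity, a CPM ratio of 0.412 (95% counting interval 0.193 to 0.826). The groups overlapped, the gene was too low to be tested, and without the count filter its adjusted p was 0.300. HOXB2 had the fewest reads of all members, with 9, 0 and 0 counts in simulated microgravity and 0, 2 and 4 counts in normal gravity.

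In the HOXA cluster HOXA2 and HOXA3 fell. HOXA2, which patterns the second pharyngeal arch in mice, was at 0.460, 1.19 and 1.32 CPM in simulated microgravity, against 2.75, 5.22 and 1.97 CPM in normal gravity. It fell (log2 fold change -1.74, SE 0.51, adjusted p = 0.0174), but the call ended without simulated microgravity replicate 1 (adjusted p = 0.0543) or normal gravity replicate 2 (adjusted p = 0.0602). HOXA3, a gene of thymus and parathyroid formation in mice, was at 11.1, 10.5 and 10.8 CPM in simulated microgravity, against 20.1, 25.2 and 19.4 CPM in normal gravity (log2 fold change -0.998, SE 0.15, adjusted p = 7.69e-04).

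From HOXA4 to HOXA11 no tested gene of the HOXA cluster passed. HOXA4 and HOXA10 lay wholly below normal gravity, the first with a log2 value of -0.60 (SE 0.30, adjusted p = 0.119) and the other of -0.63 (SE 0.25, adjusted p = 0.0554). HOXA5, a lung and breast epithelial gene, was the only one of them with a positive value (log2 fold change 0.47, approximate 95% interval -0.02 to 0.97). HOXA11, a gene of limb and uterus, was low in replicate 3 of both groups, at 2.56, 2.27 and 0.825 CPM in simulated microgravity and 3.58, 3.94 and 1.33 CPM in normal gravity (log2 fold change -0.65, SE 0.52, adjusted p = 0.318). HOXA6 also overlapped between groups (log2 fold change -0.82, SE 0.45, adjusted p = 0.152). HOXA9, best known from leukaemia, had 5, 4 and 2 counts in simulated microgravity, against 22, 7 and 28 counts in normal gravity, a CPM ratio of 0.206 (95% counting interval 0.0972 to 0.396). It was not tested, and without the count filter its adjusted p was 0.0374. HOXA7 had 7, 2 and 1 counts in simulated microgravity, against 6, 8 and 14 counts in normal gravity, and the groups overlapped.

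**Figure D2:**
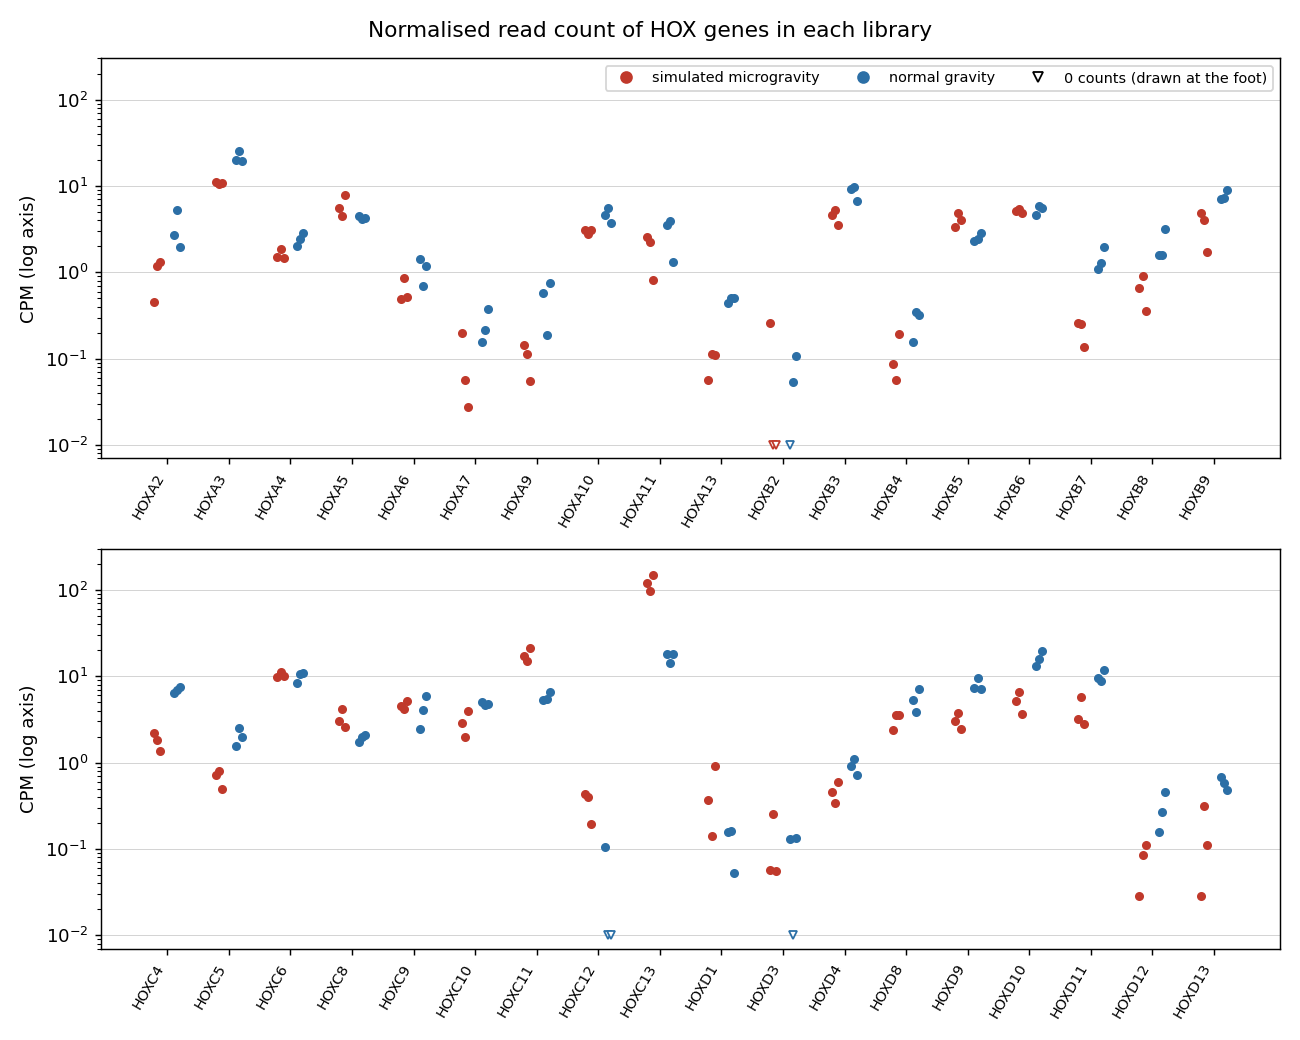
CPM on a log axis (vertical) of HOX genes (horizontal) in each library, with simulated microgravity at the left and normal gravity at the right of each pair and libraries with 0 counts as open triangles at the foot. The HOXC13 libraries of simulated microgravity lie between 98.2 and 149 CPM, above all other values, and HOXB2, HOXC12 and HOXD3 are the members with libraries at 0.

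No HOX gene was at 0 in all libraries of a group. HOXB2 had no read in 2 simulated microgravity libraries and 1 normal gravity library, HOXC12 in 2 normal gravity libraries and HOXD3 in 1. A group with no read at all would have allowed up to 0.0282 CPM in simulated microgravity and 0.0264 CPM in normal gravity (3 counts over the group).

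By paralogue group, the genes moved one way in some groups and divided in others. Both tested members of group 3, HOXA3 and HOXB3, fell by about the same log2 amount (-0.998 and -0.95). In group 9, HOXB9 and HOXD9 fell and HOXC9 did not pass, and in group 10 all 3 members lay below normal gravity with a call for HOXD10. Groups 11 and 13 divided, with the HOXC member higher in each. HOXC11 rose and HOXD11 fell, and HOXC13 rose and both its paralogues fell. HOXA13 passed the count filter through normal gravity alone and the HOXD13 call was not stable, so the falls in group 13 rest on few reads. The homeoboxes of HOXC11 and HOXD11 were 81.7% identical, and their transcripts shared no run of more than 22 bases. Of the central genes (groups 4 to 8), none rose and 4 fell of 13. Of the posterior genes (groups 9 to 13), 2 rose and 6 fell of 12. The share of all tested genes that fell was 29.3%. Without normal gravity replicate 3, 2 central genes rose, and over all genes 4833 of 15218 tested rose, against 4157 of 14736 with each library kept.

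Summed over the cluster, HOXC reads were at 162.5, 137.6 and 194 CPM in simulated microgravity, against 49.3, 50.8 and 57.5 CPM in normal gravity. Without HOXC13 the other HOXC genes summed to 40.8, 39.4 and 44.9 CPM in simulated microgravity, against 31.0, 36.4 and 39.6 CPM in normal gravity, and the groups overlapped. HOXD reads summed to 14.8, 20.8 and 14.3 CPM in simulated microgravity, against 37.2, 40.2 and 47.4 CPM in normal gravity, the cluster with the largest fall. HOXB reads summed to 18.3 ± 3.04 CPM in simulated microgravity and 28.2 ± 1.92 CPM in normal gravity (SD, n = 3 each). HOXA reads summed to 51.4 ± 6.09 CPM in simulated microgravity and 55.2 ± 8.53 CPM in normal gravity (SD, n = 3 each), and the groups overlapped.

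HOXC13 alone took 49.04%, 43.8% and 53.1% of all HOX reads in the simulated microgravity libraries, against 11.04%, 7.81% and 9.81% in the normal gravity libraries. The exact 95% binomial intervals, which cover counting error only, were widest at 42.7% to 44.9% in simulated microgravity (replicate 2) and at 10.3% to 11.8% in normal gravity (replicate 1). All HOX genes together summed to 251 ± 28.0 CPM in simulated microgravity and 178 ± 10.6 CPM in normal gravity (SD, n = 3 each). Without HOXC13 the sum was 128 ± 3.01 CPM in simulated microgravity and 161 ± 12.01 CPM in normal gravity, so the direction of the total turned on this gene.

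**Figure D3:**
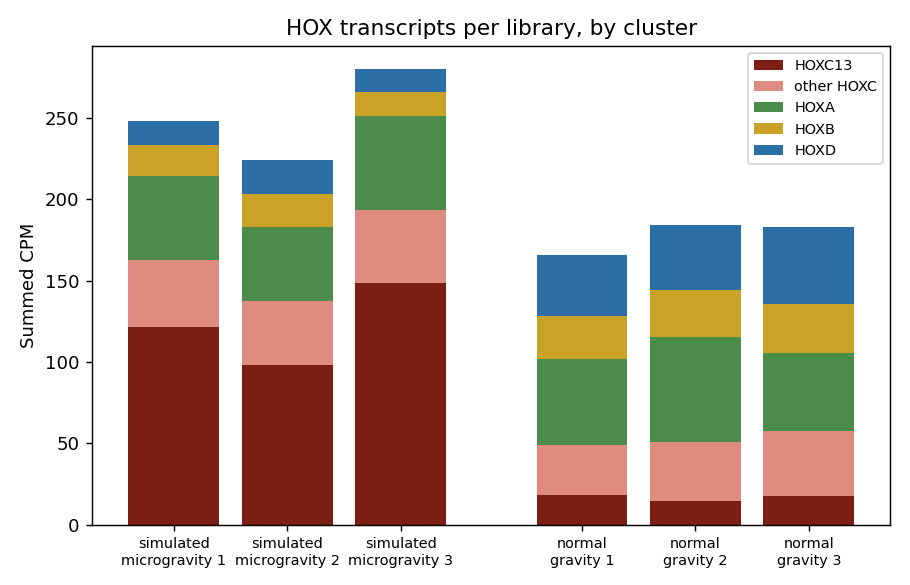
CPM summed over HOX genes (vertical axis, from 0) in each library, stacked by HOXC13, the other HOXC genes, HOXA, HOXB and HOXD. HOXC13 takes 98.2 to 149 CPM of each simulated microgravity bar, against 14.4 to 18.3 CPM of each normal gravity bar.

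Per kilobase of annotated exon, which allows genes to be set beside each other, HOXC13 had the highest mean level in both groups. It was at 50.7 ± 10.4 CPM per kb in simulated microgravity and 6.96 ± 0.886 CPM per kb in normal gravity (SD, n = 3 each). In simulated microgravity HOXC11 was at 5.43 ± 0.956 CPM per kb, below HOXC13 in each library. In normal gravity HOXD10, at 6.005 ± 1.23 CPM per kb, HOXA3 at 5.01 ± 0.736 and HOXD11 at 4.76 ± 0.731 lay within each other's spread. Libraries of HOXD10 overlapped those of HOXC13, and those of HOXA3 and HOXD11 lay below them. By this level HOXD10 ranked 10 in simulated microgravity and 2 in normal gravity, and HOXC11 ranked 3 in simulated microgravity and 15 in normal gravity. These levels use GENCODE release 29, which may differ from the annotation the authors counted with.

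Non-coding genes lie between the HOX genes, mostly on the other strand. No source used here gives the strand setting of the counting, so reads of a gene and an overlapping antisense gene cannot be told apart. Of 14 such genes with a row, 9 were tested, 4 rose and 1 fell, against 28.2% and 29.3% of all tested genes. HOXC13-AS, which starts beside HOXC13 and shares 172 exonic bases with it, was at 15.5, 14.3 and 18.5 CPM in simulated microgravity, against 3.27, 3.11 and 3.51 CPM in normal gravity. It rose 4.88-fold (log2 fold change 2.29, SE 0.18, adjusted p = 2.96e-05). HOTAIRM1, a non-coding RNA of the HOXA cluster known from myeloid cells, was at 53.5, 39.3 and 61.1 CPM in simulated microgravity, against 11.04, 12.5 and 15.99 CPM in normal gravity. It rose 3.89-fold (log2 fold change 1.96, SE 0.20, adjusted p = 9.90e-05).

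HOXA10-AS, which shares 608 exonic bases with HOXA10, was at 1.95, 1.87 and 2.34 CPM in simulated microgravity, against 7.38, 9.16 and 5.87 CPM in normal gravity. It fell (log2 fold change -1.86, SE 0.25, adjusted p = 4.03e-04), in the same direction as the values of HOXA10. HOTAIR, a long non-coding RNA between HOXC11 and HOXC12 that is studied for silencing of the HOXD cluster, was named after its values were seen. It was at 6.64, 6.86 and 7.56 CPM in simulated microgravity, against 1.73, 1.65 and 3.40 CPM in normal gravity (log2 fold change 1.63, SE 0.32, adjusted p = 0.00243). HOTAIR and HOXC11 share no exonic base. HOXA-AS3, the fourth gene that rose and also named afterwards, had 55 counts over the simulated microgravity libraries and 3 over those of normal gravity, a CPM ratio of 19.5 (95% counting interval 6.34 to 97.6). It passed the count filter through simulated microgravity alone, so its place in the count of 4 depended on being high there. HAGLR, HOXA-AS2, HOXA11-AS and HOXD-AS2 did not pass.

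**Figure D4:**
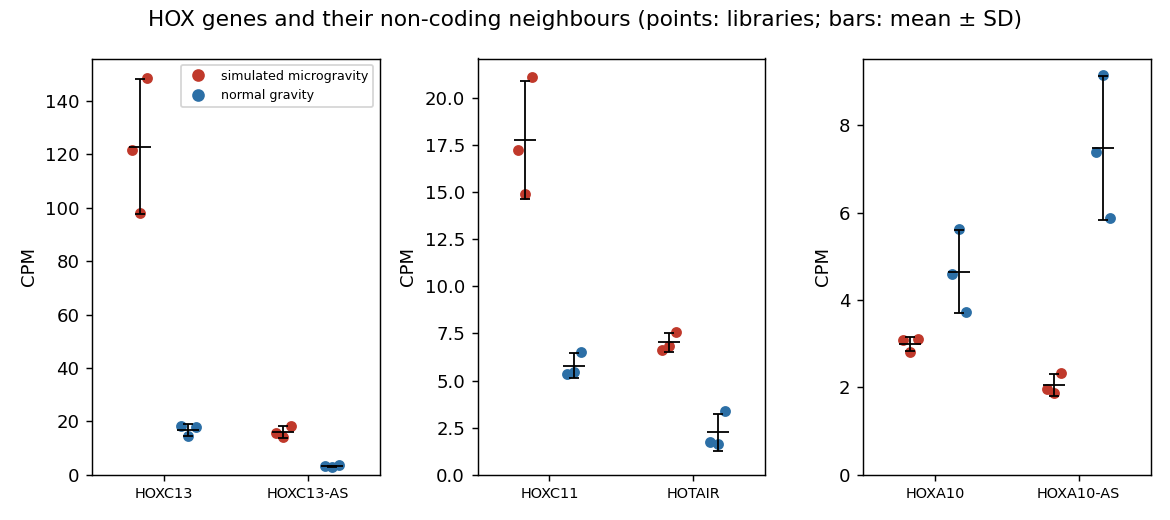
CPM (vertical axes, from 0) of HOXC13, HOXC11 and HOXA10, each beside a non-coding neighbour, with simulated microgravity left of normal gravity, points for libraries and bars for mean ± SD. In all but HOXA10 and HOXA10-AS the simulated microgravity libraries lie above those of normal gravity.

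HOX proteins bind DNA with partners of the TALE class, the PBX, MEIS and PKNOX proteins. Of 9 partner genes 8 were tested: 2 rose, 1 fell and 5 missed the threshold. That is 37.5% called, against 57.6% of all tested genes. PKNOX1 was at 35.0, 34.3 and 35.3 CPM in simulated microgravity, against 16.3, 18.8 and 17.8 CPM in normal gravity (log2 fold change 0.98, SE 0.12, adjusted p = 1.99e-04). PKNOX2 was at 2.68 ± 0.45 CPM in simulated microgravity and 0.150 ± 0.108 CPM in normal gravity (SD, n = 3 each; log2 fold change 4.13, SE 0.53, adjusted p = 2.98e-04). It passed the count filter through the simulated microgravity libraries alone. PBX3 was at 11.4, 10.2 and 11.98 CPM in simulated microgravity, against 20.2, 24.9 and 21.3 CPM in normal gravity, and fell (log2 fold change -0.98, SE 0.15, adjusted p = 7.17e-04). PBX2, MEIS1, MEIS2, MEIS3 and PBX4 did not pass.

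MLL complexes keep HOX genes active and Polycomb complexes keep them silent. Of 32 genes of these complexes and their helpers, each was tested; 10 rose, 8 fell and 14 missed the threshold, and their median log2 value was -0.01, as over all tested genes. The share called was 56.25%, near the 57.6% of all tested genes. EZH1, the methyltransferase of Polycomb in resting cells, was at 81.6 ± 4.99 CPM in simulated microgravity and 35.6 ± 2.04 CPM in normal gravity (log2 fold change 1.20, SE 0.10, adjusted p = 3.87e-05). AFF1, a subunit of the elongation complexes that join MLL fusions, was at 231 ± 29.8 CPM in simulated microgravity and 91.6 ± 12.9 CPM in normal gravity (log2 fold change 1.33, SE 0.14, adjusted p = 1.10e-04). PSIP1, which tethers MLL and menin to chromatin, was at 36.5 ± 2.05 CPM in simulated microgravity and 114 ± 23.1 CPM in normal gravity (log2 fold change -1.65, SE 0.15, adjusted p = 6.28e-05). PHF19, a Polycomb accessory protein, was at 18.5 ± 1.36 CPM in simulated microgravity and 82.1 ± 22.6 CPM in normal gravity (log2 fold change -2.15, SE 0.21, adjusted p = 7.21e-05). Each of these 4 values is a mean ± SD of 3 libraries per group.

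Retinoic acid is the textbook inducer of HOX genes in the embryo. Of 20 genes of its synthesis, uptake, receptors and breakdown, with the CDX genes that also act on HOX clusters, 12 were tested: 3 rose, 2 fell and 7 missed the threshold. That is 41.7% called, against 57.6% of all tested genes. RDH10, the dehydrogenase that makes retinal, was at 449 ± 74.3 CPM in simulated microgravity and 31.3 ± 3.36 CPM in normal gravity (SD, n = 3 each; log2 fold change 3.84, SE 0.16, adjusted p = 2.11e-06). STRA6, the retinol uptake receptor, was at 27.4 ± 2.29 CPM in simulated microgravity and 1.59 ± 0.383 CPM in normal gravity (log2 fold change 4.10, SE 0.22, adjusted p = 5.50e-06). CRABP2, which carries retinoic acid to its receptors, fell (log2 fold change -1.28, SE 0.24, adjusted p = 0.00211) and so did the receptor gene RARA (log2 fold change -0.75, SE 0.20, adjusted p = 0.0115). ALDH1A3, which makes retinoic acid from retinal, was the third gene that rose (log2 fold change 3.39, SE 0.49, adjusted p = 7.08e-04). CYP26B1, which degrades retinoic acid, and DHRS3, which lowers retinal, did not pass (adjusted p = 0.0779 and 0.0757). The last 3 genes were named after their values were seen.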

How the data were processed

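A single table deposited by the authors gives raw counts of reads for each gene in 6 libraries. The submitters' processing notes name hg38, HISAT, HTSeq, fastp, DESeq2 and R 3.2.0 without saying what each did, and no source used here gives an annotation release or a strand setting. Columns carry a short group name and a replicate number. The rotary culture name stands in the treatment protocol, and the other was taken as normal gravity since no further group exists. No pair of libraries within a group agreed within sampling noise (chi-square per degree of freedom 17.9 to 142). The labels call the libraries biological replicates without describing the cultures, so p-values rest on a spread that may be technical in part.

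Genes were filtered with filterByExpr (minimum count 10), which left 14736 of 22941, scaled by TMM and tested with edgeR 4.0.16 (quasi-likelihood F-test, robust, R 4.3.3) with Benjamini-Hochberg adjustment over all tested genes and a threshold of 0.05. SEs are the fold change over the square root of F, so intervals are approximate. Counting intervals and floors cover counting error only, as reads carry no molecular identifiers. On simulated counts of 14012 genes this test called 48 of 100 genes given a 2-fold difference, 81 of 100 given a 4-fold difference and 6 genes given none. The 4-fold differences were all rises. Only 200 genes were changed there, where 8482 of 14736 passed in the data, so the adjustment was stricter and these rates do not carry over. DESeq2 1.42.0, limma-voom (limma 3.58.1), other scalings and filters, a replicate block and leaving out each library were alternatives.

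The rule names every HOX gene; some items are not reported here. From each other list come the 3 members with the smallest adjusted p, or 2 per direction where members passed both ways, and 2 from the hair keratin list. The members and lists were chosen with earlier results of these data known. Genes not called are named as well where a list is given in full. Gene positions and promoter windows are from RefSeq GRCh38.p14, exons and homeoboxes from GENCODE release 29. Homeoboxes were located by the codons of the conserved tryptophan and phenylalanine at homeodomain residues 48 and 49.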

Additional observations from a re-analysis of the deposited data

How the results depend on the processing

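Over 13 alternatives, and where the gene was tested, the calls of HOXC11 and HOXC13 and 9 of the 13 falls held in each; the exceptions among the falls were HOXA2, HOXB8, HOXB9 and HOXD13, and no called HOX gene changed direction. The number of HOX genes that rose was 3 and became 5 with DESeq2 size factors, with the CPM filter (over 1 CPM in at least 3 libraries) and with the DESeq2 Wald test, through HOXB5 and HOXC8, and it ranged from 3 to 6 when a library was left out. The number that fell was 11 to 15. Among HOXB genes 1 rose with DESeq2 size factors, with library size only, with the CPM filter and with the DESeq2 Wald test, and 0 or 1 when a library was left out. Among central genes 2 rose with DESeq2 size factors, the CPM filter and the DESeq2 Wald test and 1 with library size only, and 0 to 2 when a library was left out. With a library left out, 2 to 4 HOXC genes, 0 or 1 HOXD gene and 1 or 2 anterior genes rose, and 1 or 2 partner genes fell. Without the count filter 2 partner genes fell. Counting as absent a group with fewer than 10 counts gave 2 HOX genes in simulated microgravity and 2 in normal gravity. Under the rule of 0 counts in every remaining library, leaving out a library gave 0 or 1 in each group. Those at 0 were HOXB2 without simulated microgravity replicate 1 and HOXC12 without normal gravity replicate 1. Signs that turned belonged to genes with no call: with a library left out, HOXB6 lay between -0.17 and 0.014 (positive without normal gravity replicate 2), HOXC6 between -0.065 and 0.12 (-0.0047 without simulated microgravity replicate 2, lowest without normal gravity replicate 1) and HOXC9 between -0.12 (without normal gravity replicate 1) and 0.50. The log2 ratio of summed HOXA reads was -0.20 to 0.023 when a library was left out, positive without normal gravity replicate 2. The cause of these shifts was not tested. The labels do not say whether same-numbered libraries were paired. Correlations of the deviations of same-numbered libraries were 0.05, -0.04 and -0.02, which with 3 libraries per group cannot settle it. With the replicate block 3 HOX genes rose and 12 fell, the call of HOXD13 being lost (adjusted p = 0.0638 in edgeR's quasi-likelihood test). The 8 HOX genes left untested had too few counts for the filter. Of their exonic bases, 74.1% were shared with other genes for HOXD3, 62.5% for HOXA7 and 58.1% for HOXD1. The share was 27.0% for HOXA9, 17.1% for HOXB4, 3.72% for HOXB2 and 0 for HOXC12 and HOXD12. Whether depth, shared exons or low expression kept their counts low was not tested.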

Other observations

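HOXC13 is tied to hair keratins in the hair follicle, and a list of 17 hair keratin genes with FOXN1 and MSX2 was counted beside it. Of these 19 genes 16 had a row and 10 were tested: 6 rose, 1 fell and 3 did not pass, where 28.2% of all tested genes rose. Of the 6, KRT31, KRT37 and KRT81 passed the count filter through the simulated microgravity libraries alone, so their place among the tested genes depended on being high there (KRT31 and KRT81 are named after their values were seen). KRT37 had 193, 181 and 267 counts in simulated microgravity, against 2, 0 and 1 counts in normal gravity, a CPM ratio of 228 (95% counting interval 77.5 to 1107; adjusted p = 1.75e-05 in edgeR's quasi-likelihood test). KRT34 was at 24.0, 16.1 and 30.6 CPM in simulated microgravity, against 1.39, 0.745 and 0.611 CPM in normal gravity (log2 fold change 4.68, SE 0.37, adjusted p = 3.22e-05). KRT32, the gene that fell and named after its values were seen, was at 0.373, 0.567 and 0.385 CPM in simulated microgravity, against 1.57, 1.84 and 3.51 CPM in normal gravity (log2 fold change -2.37, SE 0.45, adjusted p = 0.00214). FOXN1 was uneven in normal gravity, with 115, 123 and 89 counts in simulated microgravity and 29, 21 and 303 counts in normal gravity. MSX2 did not pass (adjusted p = 0.472). Hair keratins are close copies of each other, so how their reads were divided is uncertain, and whether these values are linked to HOXC13 was not tested.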
